A study of Homo sapiens with 8 samples.

Results

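The replication-dependent histone genes encode the linker histones H1 and the core histones H2A, H2B, H3 and H4 that package newly copied DNA. Members were chosen by name, as protein-coding RefSeq genes called H1-1 to H1-6, or H2AC, H2BC, H3C or H4C followed by a number. The rule found 69 of 20037 protein-coding genes: 6 H1, 17 H2A, 18 H2B, 13 H3 and 15 H4 genes. On build hg38, 55 lay in 1 cluster on chromosome 6 (chr6:25726063-27893891) and 11 in a cluster on chromosome 1 (chr1:149782689-149887965). A pair, H2AC25 and H2BC26, lay at chr1:228457364-228458558, and H4C16 lay alone at chr12:14770720-14771131.

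The study asked where BRG1 and Flag-tagged wild type actin sit on chromatin with and without SETD3, the enzyme that methylates a histidine of actin. It used CUT&RUN, in which an antibody brings a nuclease to its target and the DNA cut free is sequenced, and HCT-116, a line grown from a human colorectal carcinoma. BRG1 is the ATPase of SWI/SNF complexes, which slide and evict nucleosomes. The BRG1 arm had 1 library of SETD3 control cells, 1 each of SETD3 KO1 and KO2, and 1 IgG library of control cells. The Flag-actin arm had the same 4 kinds of library, and the title of its IgG library also carries the word Empty. The labels do not give the promoter of the Flag-actin construct, whether the BRG1 arm cells carried it, or whether KO1 and KO2 are separate clones. Each control is 1 library, so no test across libraries is possible and no p-value is given; KO spreads are over 2 libraries.

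Histone genes of this kind are short, mostly without introns, and are transcribed in S phase in nuclear bodies that gather around the clusters. Many H2A and H2B genes sit head to head and share the DNA between their starts. Textbook elements of these promoters are the TATA box, the CCAAT box and, at H2B genes, an octamer bound by the factor OCT1, the product of POU2F1. Their mRNAs end in a stem-loop that is bound by SLBP instead of a poly(A) tail.

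The stretches below are shown because peaks of the control libraries lie over them. They come from the RefSeq promoter table of GRCh38.p14 and are written 5′ to 3′ toward the first gene named. Capitals mark the letters TATAAA for the first element, the letters CCAAT for the second and ATTTGCAT for the octamer, each on either strand, and runs such as TTTATAAA hold overlapping matches on both strands. The stretches named for a pair are the DNA between their divergent starts, and those named for 1 gene are the 250 bases before its start.
H2BC12 and H2AC12, chr6:27146859-27147105, minus strand: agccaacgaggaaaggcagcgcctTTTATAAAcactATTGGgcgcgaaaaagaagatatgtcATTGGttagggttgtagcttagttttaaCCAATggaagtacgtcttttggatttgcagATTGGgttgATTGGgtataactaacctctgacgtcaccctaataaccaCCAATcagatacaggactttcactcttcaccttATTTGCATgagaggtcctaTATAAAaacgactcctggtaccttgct
H2BC11 and H2AC11, chr6:27132796-27133042, minus strand: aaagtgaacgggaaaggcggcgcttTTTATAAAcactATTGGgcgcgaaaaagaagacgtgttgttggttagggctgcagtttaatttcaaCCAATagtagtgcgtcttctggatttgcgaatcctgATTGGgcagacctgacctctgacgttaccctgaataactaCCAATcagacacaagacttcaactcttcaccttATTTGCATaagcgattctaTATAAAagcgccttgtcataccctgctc
H2AC21, chr1:149887966-149888215, minus strand: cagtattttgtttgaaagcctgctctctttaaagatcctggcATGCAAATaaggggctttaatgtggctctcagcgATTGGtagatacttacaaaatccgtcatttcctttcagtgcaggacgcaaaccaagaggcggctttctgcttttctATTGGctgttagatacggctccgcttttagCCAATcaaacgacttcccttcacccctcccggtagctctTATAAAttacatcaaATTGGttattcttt
H2BC26 and H2AC25, chr1:228457874-228458102, plus strand: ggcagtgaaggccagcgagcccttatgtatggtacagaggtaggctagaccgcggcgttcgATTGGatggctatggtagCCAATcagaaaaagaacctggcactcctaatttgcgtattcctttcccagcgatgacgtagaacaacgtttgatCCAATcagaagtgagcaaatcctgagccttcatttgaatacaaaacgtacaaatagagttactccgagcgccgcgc
H1-5, chr6:27867589-27867838, minus strand: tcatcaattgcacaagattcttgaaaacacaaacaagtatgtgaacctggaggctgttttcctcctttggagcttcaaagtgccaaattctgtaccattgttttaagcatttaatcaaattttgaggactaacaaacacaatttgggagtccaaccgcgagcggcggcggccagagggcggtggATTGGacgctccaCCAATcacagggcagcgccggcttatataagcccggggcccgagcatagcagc

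Of the 69 genes, 64 matched the promoter table, and H4C1, H4C3, H2AC12, H3C11 and H3C12 did not. In the 300 bases from 250 before to 50 after the start, TATAAA occurred at 43 of the 64 genes (67.2%), against 12.4% of 15843 protein-coding genes in the table. CCAAT occurred at 54 (84.4%, against 42.1%), at every H1, H2A, H2B and H3 gene matched but at 3 of 13 H4 genes. ATTTGCAT occurred at 14 of 18 H2B and 11 of 16 H2A genes, against 2.22% of all genes. The octamer letters were at 9 of 24 histone genes with a BRG1 control peak outside IgG sites (37.5%) and at 17 of 40 without one (42.5%). TATAAA was at 75.0% of the former and 62.5% of the latter, and CCAAT at 91.7% and 80.0%; these differences were not tested.

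The lists are the authors' own peaks, 1 list per library, and hold between 23784 and 53270 peaks per antibody library on chromosomes 1 to 22, X and Y. A gene was counted as having a peak when a listed peak shared at least 1 bp with its span or the 1 kb on either side, and a peak shared by neighbours was counted once as a peak. Signal was ranked within a list, so a percentile is the place of a peak's total signal among all peaks of that list. A peak that overlapped a peak of either IgG list by 1 bp or more is called an IgG site, and all others are called outside IgG sites. At SETD3, the targeted gene, peaks were listed in every antibody library (BRG1 control, KO1 and KO2 had 7, 12 and 12, and the Flag-actin lists 2, 3 and 11). The Flag arm IgG list held 8 there and the BRG1 arm IgG list 0. Outside IgG sites BRG1 had 3, 4 and 5 peaks at SETD3, and Flag-actin had 1, 0 and 3. Such peaks do not check the knockout. Colon epithelium markers had a BRG1 control peak outside IgG sites at 5 of 9 genes, and markers of other cell types at 4 of 8, so the lists do not separate these cell types.

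BRG1 was listed at many histone genes in control cells and at few in SETD3 KO cells. Outside IgG sites, 28 of the 69 genes (40.6%) had a BRG1 peak in control cells. The KO1 list had one at 1 gene (1.45%) and the KO2 list at 8 (11.6%), a KO mean of 6.52% ± 7.17 (SD, n = 2). At 22 genes (31.9%) the control had such a peak and neither KO list had one outside IgG sites. No gene (0) had a peak in both KO lists without the control, and 0 had one in all 3 lists. Over all protein-coding genes the shares were 50.6% for the control, 15.1% for KO1 and 27.2% for KO2. The control alone held a peak at 24.5% of all genes, both KO lists alone at 0.729%, and all 3 lists at 8.78%. The fall was thus shared with genes in general, and whether it is larger at histone genes was not tested. With IgG sites included, 33, 8 and 13 histone genes had a peak (47.8%, 11.6% and 18.8%, against 59.9%, 33.6% and 42.8% of all genes), and 21 were lost from both (30.4%, against 18.3%). All 3 lists then shared 5 genes (7.25%, against 28.7%) and 0 were gained in both (0.853% of all genes).

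**Figure D1:**
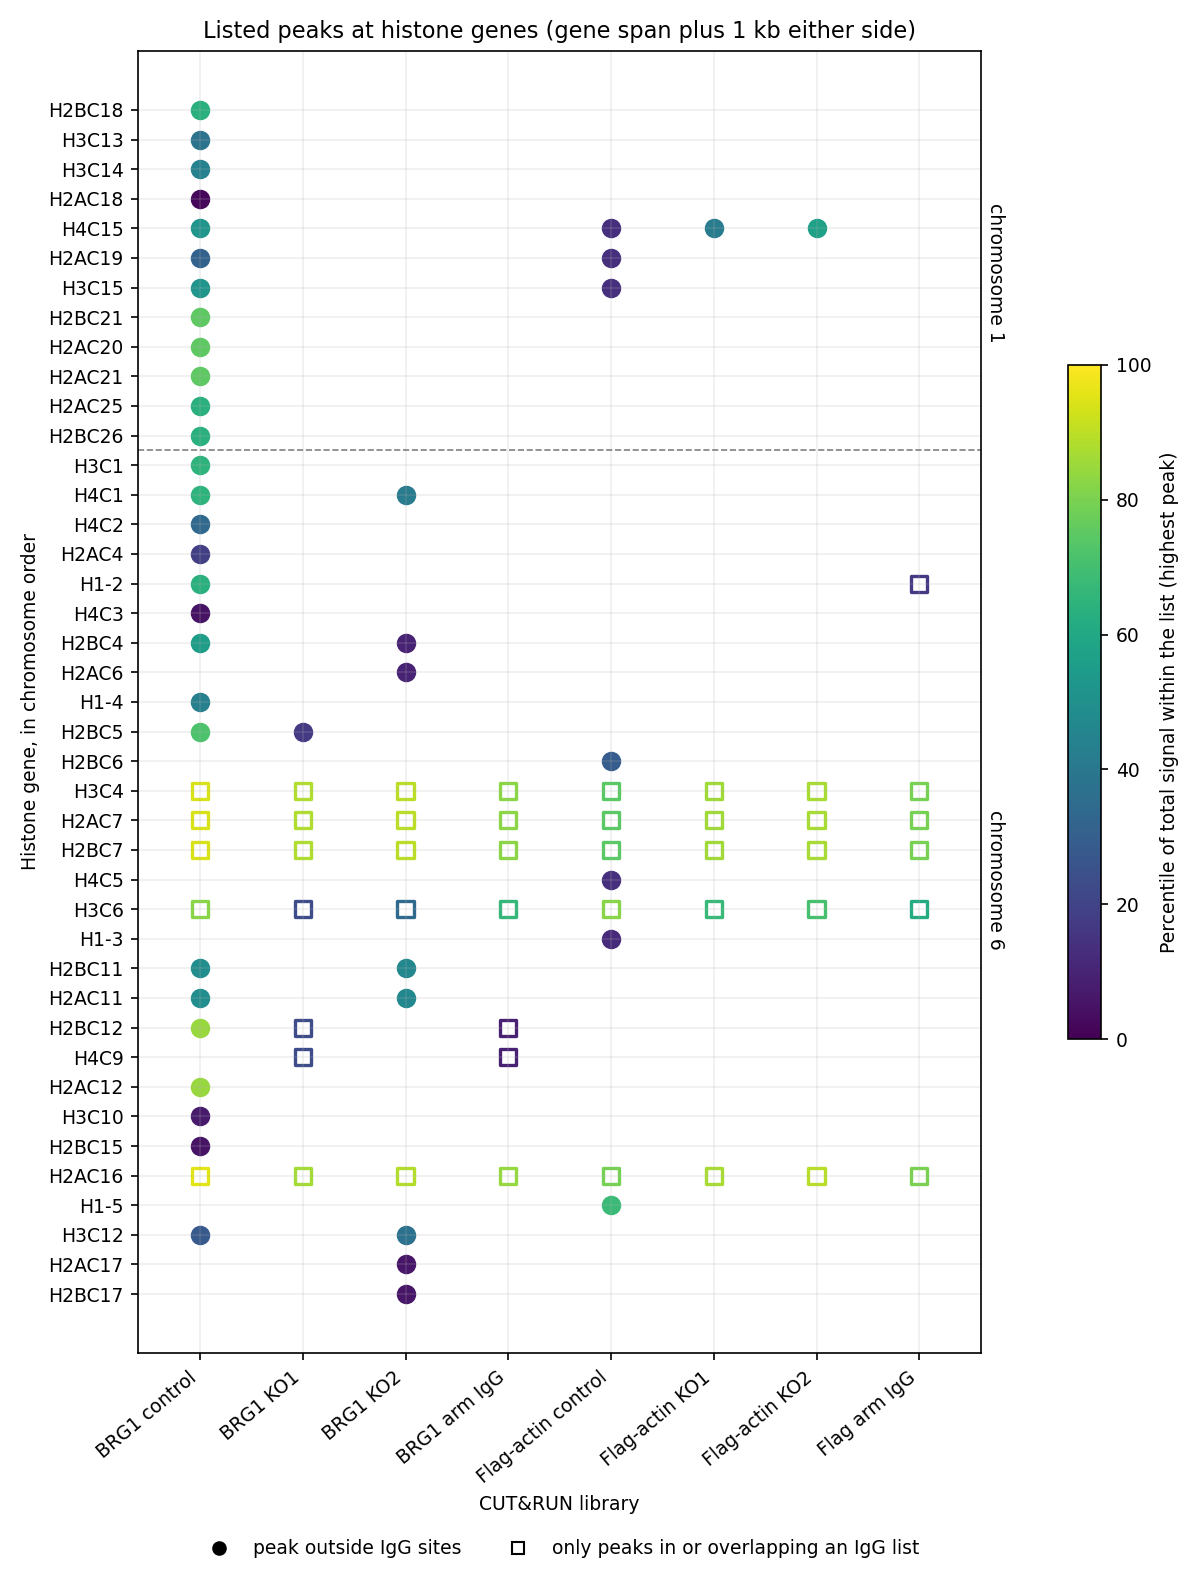
Listed peaks at the 41 histone genes with a peak in any list (rows, in chromosome order) in the 8 libraries (columns). Filled circles are peaks outside IgG sites and open squares are genes whose only peaks in that list are IgG sites; colour is the percentile of the highest such peak in its own list. The BRG1 control column holds 28 filled circles, KO1 holds 1 and KO2 holds 8, while the squares at H3C4, H2AC7, H2BC7, H3C6 and H2AC16 run through all 8 columns.

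Gene length bears on these shares, because a longer gene gives a longer window. The histone genes had a median span of 494 bp, against 24115 bp for all protein-coding genes, and 61 of the 69 were no longer than 1000 bp. Of these 61, 22 (36.1%) had a BRG1 control peak outside IgG sites, against 33 of 467 other protein-coding genes of up to 1000 bp (7.07%). For KO1 the counts were 0 of 61 and 6 of 467 (1.28%), and for KO2 they were 7 of 61 (11.5%) and 18 of 467 (3.85%). For genes no longer than the longest histone gene, 29682 bp, the BRG1 control share was 36.6%. Among the 22 other protein-coding genes inside the histone clusters, 10 had a BRG1 control peak (45.5%), 3 had one in KO1 and 1 in KO2. These differences between gene groups were not tested, since neighbours share peaks.

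**Figure D2:**
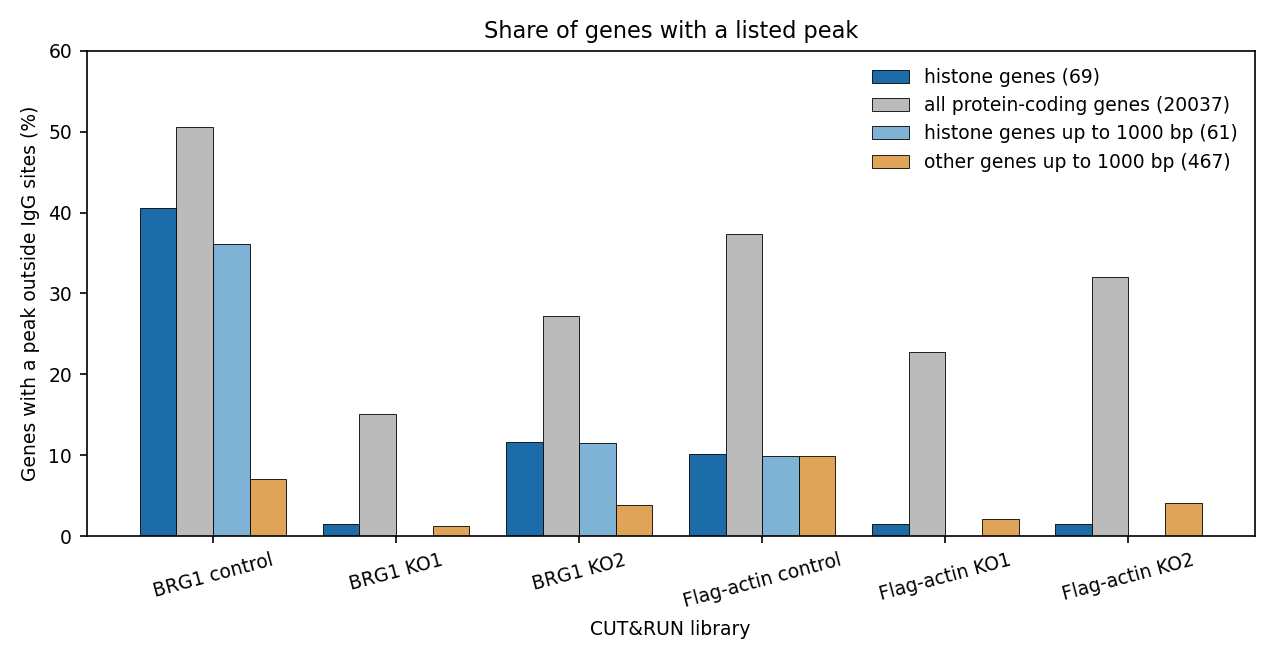
Percentage of genes with a listed peak outside IgG sites (vertical axis) in the 6 antibody libraries (horizontal axis), for 4 groups of genes; each bar is 1 library, so there are no error bars. For BRG1 in control cells, short histone genes stand at 36.1% and other short genes at 7.07%, whereas for Flag-actin in control cells the same groups stand at 9.84% and 9.85%.

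In the main cluster on chromosome 1, 10 of 11 genes had a BRG1 control peak outside IgG sites, against 50.6% of all genes. H4C14 was the gene without. In KO1 and KO2, 0 had one, against 15.1% and 27.2% of all genes. The control alone held a peak at 90.9% of the cluster's genes, against 24.5% of all genes. These genes shared 10 peaks, and H4C15 counted only through peaks at H3C15, which lies inside its long span far from its start. H2AC18 counted only through a peak at the 1.89 percentile, and H2AC19 only through a peak at the 31.6 percentile. Both genes of the distal pair, H2AC25 and H2BC26, had a BRG1 control peak and none in the KO lists. On chromosome 6 the counts were 16 of 55 for the control, 1 for KO1 and 8 for KO2, so every BRG1 KO peak at a histone gene lay on chromosome 6. As shares these were 29.1%, 1.82% and 14.5%, against 50.6%, 15.1% and 27.2% of all genes. Differences between the clusters were not tested. H4C16 on chromosome 12 had no peak in any list. Part of the chromosome 1 cluster is duplicated: the promoters of H3C14 and H3C15 matched at 296 of 296 aligned bases, those of H2AC18 and H2AC19 at 299 of 299, and those of H4C14 and H4C15 at 300 of 300. How reads from such copies were placed is not stated in the sources used here, so the presence or absence of a peak at 1 copy is uncertain.

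By class, BRG1 control peaks outside IgG sites were at 8 of 17 H2A, 8 of 18 H2B, 6 of 13 H3, 4 of 15 H4 and 2 of 6 H1 genes. As shares these were 47.1%, 44.4%, 46.2%, 26.7% and 33.3%, against 50.6% of all genes. H2A and H2B genes form the dimers at the edges of the nucleosome, and H3 and H4 the tetramer at its core. The 4 H4 genes were H4C1, H4C2, H4C3 and H4C15. In KO2 the counts were 3, 3, 1, 1 and 0 (27.2% of all genes), and in KO1 they were 0, 1, 0, 0 and 0 (15.1%). Differences between the classes were not tested.

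These counts rest on 28 BRG1 control peaks outside IgG sites, of which 10 lay at the main chromosome 1 cluster, 2 at the distal pair and 16 on chromosome 6, and 12 lay in the windows of more than 1 histone gene. By total signal most were of middling rank: the median percentile was 40.8, against 36.3 for all BRG1 control peaks outside IgG sites. The range ran from 1.89 to 84.5. Maximum signals of the 28 ran from 26.3 (H3C12) to 153.4, against 569.8 to 3313 at the IgG sites of this list. The 153.4 was at a 40 bp peak past the end of H2BC12 (chr6:27137991-27138030). The peak over the promoter of H2BC12 and H2AC12 had a maximum of 74.51. The peak over H2AC21, at the 75.0 percentile, had a maximum of 39.45 over 630 bp. With IgG sites included, the top 0.5 of the list gave 20 histone genes by total signal and 8 by maximum signal. The median width of the 28 was 260 bp, against 210 bp for all BRG1 control peaks outside IgG sites. Over a histone gene's own span lay 17 of the 28, 8 lay past the end of the nearest gene, 1 before its start, and 2 were nearest to a gene whose strand the promoter table does not give. Promoter windows held fewer: 11 of 64 histone genes (17.2%) had a BRG1 control peak outside IgG sites over the 300 promoter bases, against 25.1% of all genes. In KO1 this was 1 gene (1.56%, against 3.0%) and in KO2 5 genes (7.81%, against 9.23%). Flag-actin peaks outside IgG sites covered 3 histone promoters in the control (4.69%, against 3.38%) and 0 in KO1 and KO2 (0.966% and 2.03% of all genes).

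**Figure D3:**
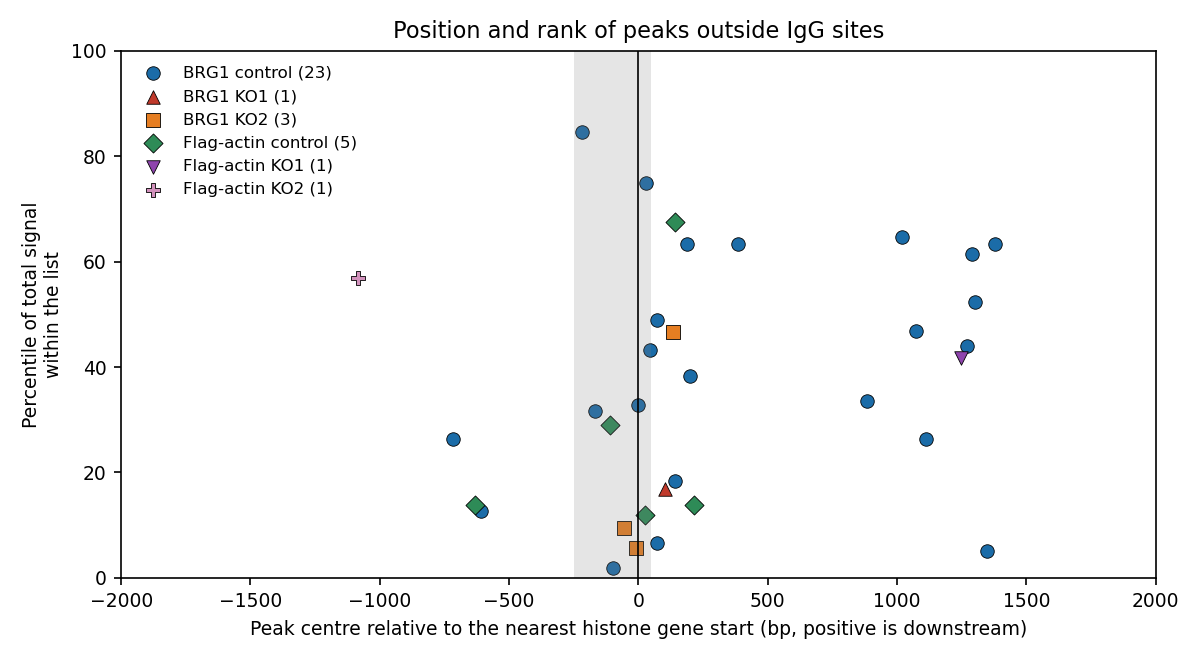
Each point is 1 listed peak outside IgG sites, placed by the distance of its centre from the nearest histone gene start (horizontal axis, bp, positive downstream) and by its percentile within its list (vertical axis); the grey band is the 300 bp promoter window. The 34 peaks within 2000 bp are drawn; 3 lay farther away and 4 had no start in the table. The BRG1 control points near a start reach the 84.5 percentile, and a second group lies about 1 kb downstream. Some of this group lie past the gene's end and others inside its span, as at H2BC21 and H2BC18. Only peaks in a gene span or the 1 kb on either side enter, which limits where points can lie. Starts absent from the promoter table were not used. The peak between H3C1 and H4C1 is therefore drawn 1020 bp downstream of the H3C1 start, although the H4C1 gene lies nearer.

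Outside IgG sites, the BRG1 control peak of the highest rank at a histone gene covered the shared promoter of H2BC12 and H2AC12, a divergent H2B and H2A pair. It ran from chr6:27146691-27147460, was 770 bp wide, had a total signal of 20250 and ranked at the 84.5 percentile. All 247 bases printed above between the starts lay inside it. No peak overlapped it in KO1, KO2, either IgG list or any Flag-actin list. Within the long span of H2BC12 the KO1 list held only a 30 bp peak at an IgG site shared with H4C9 (chr6:27138831-27138860, percentile 22.9), which the BRG1 arm IgG list held as well.

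The next was at the end of the chromosome 1 cluster, at chr1:149887621-149888250, over the H2A gene H2AC21 and the 250 bases before its start, in the windows of H2AC20 and H2BC21 as well. It was 630 bp wide, had a total signal of 11440 and ranked at the 75.0 percentile. Peaks of lower total signal on either side ranked at the 26.4 percentile (chr1:149885471-149885670, in H2BC21) and at the 12.6 percentile (chr1:149888431-149888720). By maximum signal the peak in H2BC21 was higher than that over H2AC21, at 48.21 against 39.45. None of the 3 had a counterpart in the KO lists.

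At H2BC5, an H2B gene, the highest BRG1 control peak lay past the far end of its long span at chr6:26171811-26172210 and ranked at the 71.6 percentile. A second peak sat at its start, at chr6:26158071-26158260 (percentile 43.3), also within 1 kb of the linker histone gene H1-4 behind it. KO1 held a peak here at chr6:26158161-26158290 (percentile 16.8) that overlapped the control peak by 100 bp. It was the only BRG1 control peak of the 28 with an overlapping peak in a KO list, and KO2 had none at this place. Over the whole list, 7.16% of BRG1 control peaks outside IgG sites overlapped a KO1 peak and 13.7% a KO2 peak.

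Further peaks above the 60 percentile in the BRG1 control lay at H3C1 with H4C1, H1-2, H2BC18 and the distal pair. Between H3C1 and H4C1, an H3 and an H4 gene, the peak at chr6:26021351-26021590 ranked at the 64.7 percentile. At H1-2 the peak at chr6:26054931-26055250 ranked at the 63.4 percentile and a second at chr6:26055301-26055490 at the 46.9 percentile. Both lay past the end of the gene, and the Flag arm IgG list held a 100 bp peak of percentile 17.5 close by (chr6:26055661-26055760). H2BC18 held 2 peaks inside its long span near the start, at the 61.4 and 63.4 percentiles, and a peak over the neighbouring H3 gene H3C13 (percentile 38.2) lay within 1 kb of it. At the distal pair, 1 peak covered 107 of the 229 bases between the starts (chr1:228457771-228457980, percentile 32.7) and another lay in H2BC26 (chr1:228458161-228458420, percentile 63.4).

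In KO2 the 8 genes with a BRG1 peak outside IgG sites shared 5 peaks, none of which overlapped a control peak. At the pair H2BC11 and H2AC11 the control peak (chr6:27132941-27133290, percentile 49.0) covered 102 of the 247 bases between the starts, on the H2AC11 side. The KO2 peak (chr6:27132551-27132770, percentile 46.7) lay within H2BC11, 170 bp away from it. At H4C1 the KO2 peak (chr6:26022281-26022380, percentile 41.2) was 690 bp from the control peak, and at H3C12 (chr6:27889961-27890120, percentile 37.7) it was 570 bp away. The remaining KO2 peaks lay at the promoters of 2 divergent pairs. H2BC4 and H2AC6 held the peak at chr6:26124041-26124190 (percentile 9.49), where the control peak of H2BC4 was 4810 bp away, and H2AC17 and H2BC17 held the peak at chr6:27893131-27893260 (percentile 5.72). H2AC6, H2AC17 and H2BC17 were the 3 genes with a KO2 peak and no control peak outside IgG sites, and KO1 had no peak at any of these places.

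The lists differ in length. The BRG1 control list held 53270 peaks, KO1 23784 and KO2 32038, and the Flag-actin lists held 38902, 27249 and 35892. Read depth is not known. Maximum signals came in steps of 4.38, 11.5 and 9.09 in the BRG1 control, KO1 and KO2, finest in the control, and in steps of 21.5, 9.69 and 8.4 in the Flag-actin lists, coarsest in the control. With every antibody list shortened to its 23784 strongest peaks and IgG sites removed, a setting added after seeing the data, 12 histone genes had a BRG1 control peak (17.4%, against 22.5% of all genes). The KO1 list had one at 1 gene (1.45%, against 15.1%) and the KO2 list at 4 (5.8%, against 16.6%), and 10 genes were lost from both (14.5%, against 9.92%). With IgG sites kept, shortened lists gave 17, 8 and 9 genes (38.7%, 33.6% and 35.3% of all genes), and 9 were lost from both (7.57% of all genes). Lowest listed total signals were 4164, 6228 and 5182 in the BRG1 control, KO1 and KO2, on a scale of unstated normalisation. Of the BRG1 control peaks counted at histone genes outside IgG sites, 10 reached the KO1 value. None (0) of these overlapped a KO1 peak, against 16.8% over the whole list. For KO2 the counts were 16 and 0, against 21.8%. Whether the absence of weaker control peaks from the KO lists is a loss was not tested. The part of sequencing depth in the fall was not tested.

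Flag-actin was listed at few histone genes in any library. Outside IgG sites, 7 of 69 (10.1%) had a Flag-actin peak in control cells, and each KO list had one at 1 gene (1.45%). Over all protein-coding genes the shares were 37.4%, 22.8% and 32.0% for control, KO1 and KO2. A control peak without any KO peak was found at 6 genes (8.7%, against 13.7%), peaks in both KO lists without the control at 0 genes (3.44% of all genes), and peaks in all 3 lists at H4C15 alone (1.45%, against 9.56%). With lists of equal length and IgG sites removed, the control had no excess: control, KO1 and KO2 each had a Flag-actin peak at 1 gene (22.3%, 18.7% and 17.8% of all genes), and 1 was lost from both (10.4% of all genes). Among genes of up to 1000 bp, 6 of 61 histone genes (9.84%) and 46 of 467 others (9.85%) had a control peak. With IgG sites included, 12, 6 and 6 histone genes had a Flag-actin peak (17.4%, 8.7% and 8.7%, against 48.4%, 37.2% and 45.4%). Of these, 6 were lost from both (8.7%, against 10.8%), 6 were in all 3 lists (8.7%, against 26.8%) and 0 were gained in both (3.45% of all genes).

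The 7 genes shared 5 control peaks outside IgG sites, all over a gene span. The highest in rank was at the linker histone gene H1-5 (chr6:27867201-27867690, 490 bp wide, total signal 42950), which ranked at the 67.6 percentile and covered 102 of the 250 bases printed before its start. The peak at H2BC6 (chr6:26183501-26183800) ranked at the 29.0 percentile. H4C5 held a peak in its body (chr6:26204681-26204970, percentile 13.9) and H1-3 held one over its start (chr6:26234741-26235180, percentile 11.9). The fifth, at chr1:149851791-149852160 (percentile 13.9), lay in the windows of H4C15, H2AC19 and H3C15. The median percentile of the 5 was 13.9, against 36.4 for all Flag-actin control peaks outside IgG sites. Apart from H1-5 they thus ranked low by total signal. By maximum signal H1-5 did not stand out: its peak had 128.9, as had those at H4C5, H1-3 and H4C15, and H2BC6 had 386.6. In the KO lists H4C15 alone had a peak, at chr1:149859841-149859980 in KO1 (percentile 41.7) and chr1:149862141-149862350 in KO2 (percentile 56.8). They lay 7680 and 9980 bp from the control peak and did not overlap each other: the KO1 peak was inside the long span of H4C15 near its start, and the KO2 peak before the start.

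H4C15, H2AC19 and H3C15 were the 3 histone genes (4.35%, against 24.4% of all genes) with a control peak outside IgG sites in both arms. Their nearest such peaks were 140 bp apart, and 0 of the 28 BRG1 control peaks overlapped a Flag-actin control peak. Over the whole lists, 3.83% of BRG1 control peaks outside IgG sites overlapped one of Flag-actin. Of the linker histone genes, H1-2 and H1-4 had BRG1 control peaks, H1-3 and H1-5 had Flag-actin control peaks, and H1-1 and H1-6 had no peak in any list. H1-6 is the testis form. No H1 gene had a peak in any KO list.

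Narrow IgG sites were the peaks that all libraries shared. Of 45 separate regions with a peak in any list, 40 were in 1 list, 2 in 2 lists and 3 in all 8. The 3 common ones lay at H2AC7 (in the span of H3C4, which shares its start, and in the window of H2BC7), at H3C6 and at H2AC16, were between 30 and 70 bp wide in every list, and account for 5 genes. They were strong in the IgG lists too: the site at H2AC7 ranked at the 82.7 percentile of the BRG1 arm IgG list and the 79.4 percentile of the Flag arm IgG list, and the site at H2AC16 at 84.2 and 79.7. Both of these lay inside an H2A gene at nearly the same distance from its start, with peak centres 238 to 252 bp downstream at H2AC7 and 238 to 244 bp at H2AC16. Including the site shared by H2BC12 and H4C9 and the Flag arm IgG peak at H1-2, the BRG1 arm IgG list had a peak at 7 histone genes (10.1%, against 32.0% of all genes) and the Flag arm IgG list at 6 (8.7%, against 30.0%). Of the 8 histone genes with any BRG1 peak in KO1, 7 had it at these sites alone.

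The maximum signal at the common sites, in the authors' scale, varied between lists. At H2AC7 it was 3300 in the BRG1 control, 6931 in KO1, 4545 in KO2 and 2364 in the BRG1 arm IgG, and 1718, 3197, 2175 and 2367 in the Flag-actin control, KO1, KO2 and Flag arm IgG. The BRG1 KO lists were the highest here and the Flag-actin control the lowest. At H2AC16 the order was similar, with 3313, 5859, 3936 and 2742 in the BRG1 arm and 1289, 3546, 2133 and 2420 in the Flag arm. H3C6 went the other way, with 569.8, 253.7, 236.4 and 614.6 in the BRG1 arm and 2534, 465, 470.4 and 608.4 in the Flag arm. No single factor between lists would bring all 3 sites level.

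**Figure D4:**
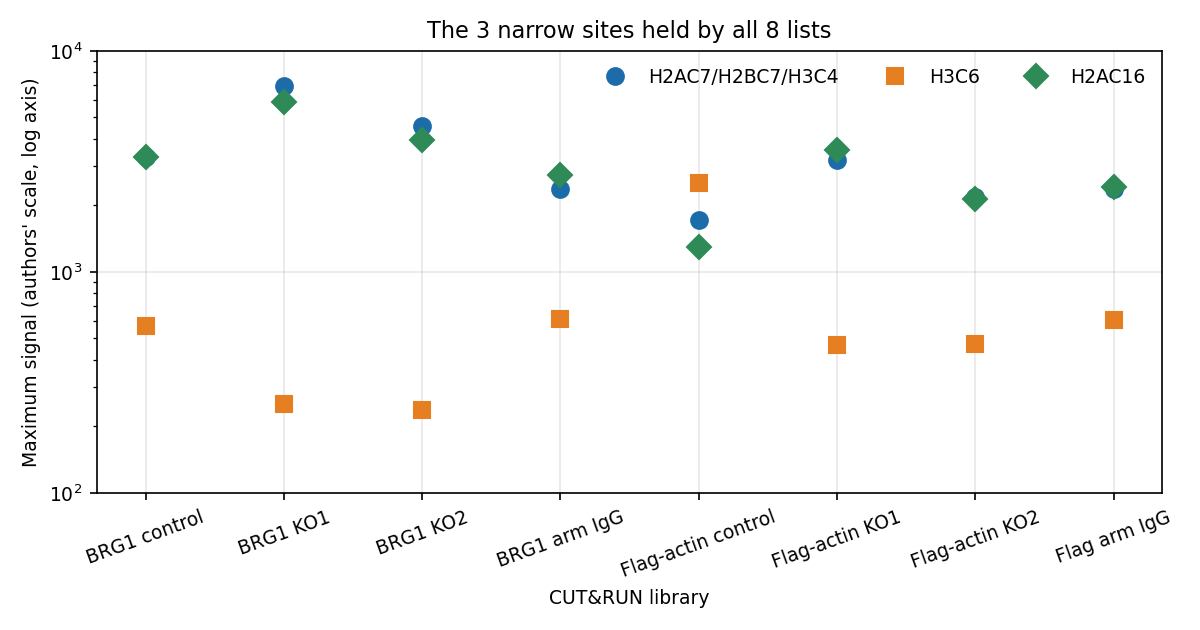
Maximum signal of the peak (vertical log axis, the authors' scale) in each of the 8 libraries (horizontal axis) at the 3 narrow sites held by every list; each point is 1 peak. H2AC7 and H2AC16 move together and are highest in BRG1 KO1 at 6931 and 5859, while H3C6 is lowest in the BRG1 KO lists and highest, at 2534, in the Flag-actin control.

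The remaining 28 genes had no peak in any of the 8 lists. They were H4C14, H4C16 and 26 genes on chromosome 6, among them the testis pair H2AC1 and H2BC1 and a run of 7 neighbours: H4C6, H4C7, H3C7, H2BC9, H3C8, H2BC10 and H4C8. H4C9, H3C4, H2AC7, H2BC7, H3C6 and H2AC16 were the 6 genes whose only peaks were IgG sites. The other 35 had a peak outside IgG sites in at least 1 antibody list.

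Genes that act with the family are given beside the shares of all protein-coding genes for BRG1, which were 50.6%, 15.1% and 27.2% for control, KO1 and KO2, with 24.5% lost from both. Of 11 variant histone genes, which are expressed outside S phase too, 8 had a BRG1 control peak outside IgG sites, 1 had one in KO1 and 4 in KO2. H2AZ1 and H2AZ2, which encode the H2A.Z variants (percentiles 77.1 and 78.4), H2AX, H2AJ and the centromeric H3 gene CENPA were lost from both outside IgG sites, and H3-3B kept a peak in KO2 (percentile 81.4 in the control, 61.9 in KO2). Of 17 genes for histone gene transcription and mRNA processing the counts were 10, 3 and 6. Lost from both were NPAT, the organiser of histone gene transcription (control percentile 1.89), and HINFP, which acts on H4 promoters (81.0). LSM11, CPSF2 and CPSF3 were lost too (control percentiles 40.5, 26.4 and 6.68), the last 2 with KO peaks at IgG sites. POU2F1 had a peak in all 3 lists (percentiles 54.8, 17.5 and 9.49). SLBP, which binds the stem-loop, had none in the control and 1 in KO2. Of 10 chaperone and assembly genes the counts were 5, 0 and 2. NASP, ASF1A, ASF1B and HAT1 were lost from both outside IgG sites (control percentiles 27.6, 32.2, 81.2 and 10.3). Whether the absence of low-ranking control peaks, such as those at NPAT and H2AX, from the shorter KO lists is a loss was not tested. H2AJ, NASP and ASF1B had KO peaks at IgG sites, and with IgG sites included 4 variant histone genes and 2 chaperone genes were lost from both. For Flag-actin the same lists had 2, 2 and 4 genes, 6, 2 and 5 genes, and 4, 2 and 1 genes in control, KO1 and KO2. The Flag-actin shares of all protein-coding genes were 37.4%, 22.8% and 32.0%.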

How the data were processed

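CUT&RUN libraries of HCT-116 cells were read from 8 deposited peak lists, 1 per library. The submitters' processing notes name hg38 as the build. They also name SEACR, MACS2, bedtools 2.30.0, deepTools, SAMtools, BWA, FastQC 0.12.0 and Trim Galore 0.4.5, without roles. The authors' lists hold 6 columns, with the total and the maximum signal of each peak. How this deposited signal was normalised is not stated in the sources used here, and read depth is unknown. The lists carry a threshold of 0.01 for antibody and 0.005 for IgG libraries.

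Only peaks on the autosomes, X and Y entered. Gene spans came from RefSeq GRCh38.p14, and starts and strands from its promoter table. Python 3.11.15, pandas 2.3.3 and numpy 2.4.6 were used for overlaps, which gave the same answer as bedtools 2.31.1 for each of 3000 simulated intervals (0 mismatches). Histone genes within 1 Mb of each other formed 1 cluster. The members, lists and tests were chosen with earlier results of these data known. The rule named, per antibody, up to 10 genes with the highest control peaks outside IgG sites, genes with such peaks in all 3 lists, genes with peaks in both KO lists alone, up to 5 with the highest KO peaks, up to 5 at IgG sites, and every H1 gene. Other genes were named after their values were seen. Alternatives changed the window, overlap, list length, ranking column and IgG filter, and left out each KO library.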

Additional observations from a re-analysis of the deposited data

How the results depend on the processing

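The counts are of histone genes with a peak, IgG sites included, and each control is 1 library. No paired analysis was possible because each control is a single library without a number and the result comes from no test. Of 108 alternative values, 66 stayed within 1.5 times the reported count and 42 did not. The order of BRG1 control above both KO lists held in every alternative run. All protein-coding genes had the same order, with 59.9%, 33.6% and 42.8% in control, KO1 and KO2. With equal-length lists their shares were 38.7%, 33.6% and 35.3%, so the order is not particular to histone genes.

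With the gene span alone, BRG1 gave 20 genes in the control and 7 in KO2. With 3 kb either side, BRG1 KO1 gave 14, Flag-actin KO2 10, the Flag arm IgG 11 and the BRG1 arm IgG 13. With the top 0.5 of each list by total signal, BRG1 gave 20, 4 and 4 in control, KO1 and KO2, and Flag-actin 6 in the control and 1 lost from both. By maximum signal, BRG1 gave 8, 4 and 4 with 4 lost from both, and Flag-actin 6 in the control with 1 lost. With equal-length lists, BRG1 gave 17 in the control and 9 lost from both. Flag-actin gave 6 in the control (36.8% of all genes), 1 lost (8.17% of all genes) and 1 gained in both. Without IgG sites, BRG1 gave 1 in KO1 and 8 in KO2, and Flag-actin 7, 1 and 1. Both together, added after seeing the data, gave 12, 1 and 4 with 10 lost for BRG1, and 1, 1 and 1 with 1 lost and 1 gained for Flag-actin. Histone genes of up to 1000 bp, also added, gave 4 in BRG1 KO1, 3 in each Flag-actin KO list and 4 in the BRG1 arm IgG. Leaving out a KO library gave 23 to 26 BRG1 genes lost and 1 to 3 gained, and 6 and 0 for Flag-actin in each case. Shares of all genes are given above for lists of equal length and for IgG sites removed, except for genes gained in both KO lists at equal length. For those gains and for the other settings they are not given, so no shift there can be read as particular to histone genes. Apart from the shorter lists and fewer genes these settings themselves make, the cause of each shift was not tested. Peaks below a list's threshold are not seen.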
